A study of Rattus norvegicus with 4 samples.

Results

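The 10 genes described here encode proteins of the lysosome, the acidic compartment in which cells break down lipids, proteins and carbohydrates. They are the lipid hydrolase activators Gm2a and Psap, the membrane proteins Laptm4a, Lamp1 and Lamp2, and the cathepsins Ctsb, Ctsd, Ctsh, Ctsl and Ctss. All probe sets annotated with 1 of these symbols and no other were taken, which gave 19 probe sets for the 10 genes out of 7006 probe sets with 1 symbol on the array. No probe set with several symbols held any of the genes. Each probe set is given separately, because probe sets of 1 gene were read from the same samples on the same arrays and are not replicates.

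The samples were whole testes of rats that had been fed a vitamin A-deficient diet from 20 days of age, and all 4 groups share that diet. After 9 weeks the animals were studied without retinol (VAD, 0 h) or 4, 8 or 24 h after retinol was given. Each group was 1 deposited sample on the Affymetrix Rat Genome U34 array, called an array below. The sources used here do not give the strain, the retinol dose or the number of animals behind a sample, and no group of rats fed vitamin A is analysed here. The deposited values are ratios with no unit. They carry no signal level, so neither the presence of testis markers nor the abundance of any gene could be checked, and only changes of 1 probe set across arrays can be read. With 1 array per time there is no replicate error and no test.

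In the testis, Sertoli cells engulf and digest the residual bodies and dying germ cells of the seminiferous tubule in their lysosomes, and resident macrophages of the interstitium are also rich in these enzymes. Newly made cathepsins and saposin precursors reach the lysosome on sorting receptors or are secreted. Rat Sertoli cells are known for secreting prosaposin, first described as sulfated glycoprotein, and procathepsin L, whose release follows the stages of the seminiferous cycle. In whole tissue, fewer cells of a type and less RNA per cell cannot be told apart.

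Many lysosomal genes in human cells carry a palindromic element around CACGTG near their start site, which the transcription factor TFEB binds. The RefSeq promoter table for rat (build GRCr8) held 8 of the 10 genes, the others being Psap and Ctsb. Of the 250 bases before the start site, CACGTG stood in Lamp1, with 5 copies, and in Ctsd, with 2 copies. Of 33469 tabulated stretches of that length, 5.59% held CACGTG, which reads the same on both strands, and 7 held 4 or more copies. The longer TCACGTGA, which contains CACGTG, stood in the same 2 genes and in 0.657% of all stretches. The tabulated start site of Lamp1 lies 7780 bases inside the annotated span of the gene. The 2 genes with the largest changes, Gm2a and Laptm4a, had no copy in this window. Neither had Lamp2, Ctsh, Ctsl and Ctss, none of which passed 2-fold, so absence did not set the changed genes apart. A link between the motif and the changes was not tested. The stretches of Gm2a, Laptm4a, Lamp1 and Ctsd are shown, with CACGTG in capitals.
Gm2a, chr10:39719669-39719918, plus strand: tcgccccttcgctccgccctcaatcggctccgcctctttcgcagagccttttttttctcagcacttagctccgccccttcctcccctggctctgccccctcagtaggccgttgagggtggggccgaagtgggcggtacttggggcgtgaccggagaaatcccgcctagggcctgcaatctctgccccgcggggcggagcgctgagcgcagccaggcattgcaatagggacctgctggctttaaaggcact
Laptm4a, chr6:37438253-37438502, plus strand: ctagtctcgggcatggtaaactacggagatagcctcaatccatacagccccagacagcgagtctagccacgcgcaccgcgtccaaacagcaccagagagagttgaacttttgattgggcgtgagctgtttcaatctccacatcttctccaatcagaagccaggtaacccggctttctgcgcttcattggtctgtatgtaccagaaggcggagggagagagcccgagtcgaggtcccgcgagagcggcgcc
Lamp1, chr16:83075064-83075313, minus strand: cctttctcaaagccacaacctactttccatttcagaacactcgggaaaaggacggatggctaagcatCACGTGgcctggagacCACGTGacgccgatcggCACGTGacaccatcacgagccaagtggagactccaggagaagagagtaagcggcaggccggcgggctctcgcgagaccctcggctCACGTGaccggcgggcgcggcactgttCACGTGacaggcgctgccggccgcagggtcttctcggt
Ctsd, chr1:206968822-206969071, minus strand: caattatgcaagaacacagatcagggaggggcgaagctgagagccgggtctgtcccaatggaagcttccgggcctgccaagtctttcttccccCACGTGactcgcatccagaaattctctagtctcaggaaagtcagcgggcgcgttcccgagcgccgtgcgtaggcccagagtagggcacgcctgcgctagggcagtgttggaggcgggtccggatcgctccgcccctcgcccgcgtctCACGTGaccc

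Half-sites of the kind that retinoic acid receptors bind were also searched, in 2 forms only, AGGTCA and AGTTCA, on both strands. Other forms, such as GGGTCA and GGTTCA, were not counted. AGGTCA stood in 1 member, Ctss, and in 14.1% of all stretches. AGTTCA stood in 2 members, Laptm4a and Ctss, and in 12.2% of all stretches. A match or its absence describes these letters only.

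Of the 19 probe sets, 2 were at least 2-fold higher than VAD at 4 h, and these were Gm2a and Laptm4a, each read by a single probe set. The same 2 were at least 2-fold higher at 8 h and at 24 h. Among all 7006 probe sets, 2.21% passed that threshold at 4 h, 4.04% at 8 h and 4.68% at 24 h. The members were chosen with earlier results of these data known, so the shares are a scale and not a test of the members. No member was at least 2-fold lower at any time, where 1.58%, 2.53% and 3.41% of all probe sets were. The other 17 probe sets, of 8 genes, had log2 changes between -0.60 and 0.54 at 4 h, between -0.76 and 0.49 at 8 h and between -0.74 and 0.68 at 24 h. All 17 lay between the 5th and 95th percentile of all probe sets at each of the 3 times.

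**Figure D1:**
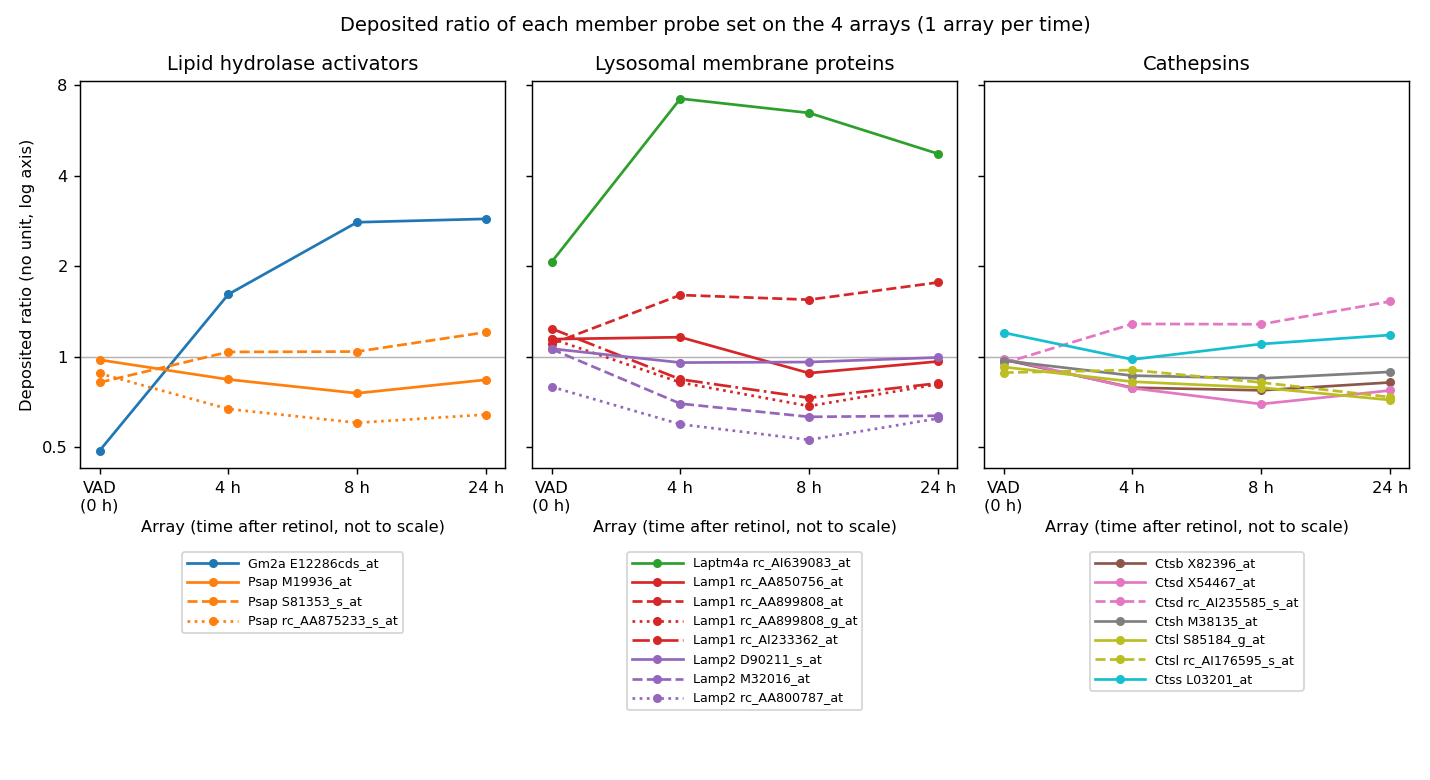
Deposited ratio (no unit, log axis) of each of the 19 probe sets on the VAD array and the arrays 4, 8 and 24 h after retinol, 1 line per probe set, with genes by colour and probe sets of a gene by line type. Gm2a is lowest on the VAD array (0.488) and highest at 24 h (2.87), and Laptm4a is at 2.07 on the VAD array and highest at 4 h (7.20), while the other lines stay between 0.53 and 1.77.

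Gm2a encodes the GM2 activator protein, which lifts the ganglioside GM2 out of the membrane so that beta-hexosaminidase A can cleave it. Its probe set (E12286cds_at) had deposited ratios of 0.488 on the VAD array, 1.61 at 4 h, 2.80 at 8 h and 2.87 at 24 h. All 3 retinol arrays lay above the VAD array, and most of the difference was present by 8 h. The log2 changes against VAD were 1.72, 2.52 and 2.56, or 3.31-, 5.74- and 5.89-fold. They ranked 16th, 4th and 6th from the top of the 7006 probe sets. The step between 4 h and 8 h was 0.80 on the log2 scale and that between 8 h and 24 h was 0.04.

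The size of the Gm2a change rested in part on its VAD value. A VAD ratio of 0.488 was the 15th lowest of 7006, while 60.5% of probe sets had VAD ratios within 10% of 1. Taken against 1 in place of the VAD array, Gm2a was 1.61-fold higher at 4 h, below the 2-fold threshold, 2.80-fold at 8 h and 2.87-fold at 24 h.

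Psap encodes prosaposin, the precursor that is cut into the saposins, small proteins that present sphingolipids to their hydrolases. It was read by 3 probe sets that went opposite ways. The probe set M19936_at had ratios of 0.977 on the VAD array, 0.841 at 4 h, 0.757 at 8 h and 0.839 at 24 h. The probe set rc_AA875233_s_at had 0.881, 0.671, 0.604 and 0.643 on the same arrays. In both, all 3 retinol arrays lay below VAD and the 8 h array was lowest, with log2 changes of -0.37 and -0.54 at 8 h. The third, S81353_s_at, had 0.822 on the VAD array, 1.04 at 4 h, 1.04 at 8 h and 1.21 at 24 h, so that all 3 retinol arrays lay above VAD, by 0.34, 0.34 and 0.55. The range between the 3 probe sets was 1.01 on the log2 scale at 24 h, against a median range of 0.77 over the 348 genes with 3 probe sets.

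Laptm4a encodes a membrane protein with several transmembrane segments that sits in late endosomes and lysosomes. Its probe set (rc_AI639083_at) had ratios of 2.07 on the VAD array, 7.20 at 4 h, 6.46 at 8 h and 4.73 at 24 h. It was highest at 4 h and lower at each later time, while staying above VAD throughout. The log2 changes against VAD were 1.80, 1.64 and 1.20, or 3.49-, 3.13- and 2.29-fold, with ranks from the top of 13, 56 and 201. The VAD ratio itself was the 8th highest of 7006. Taken against 1, Laptm4a was 7.20-, 6.46- and 4.73-fold higher.

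Gm2a and Laptm4a thus differed in their order over time on these arrays. Between 8 h and 24 h the log2 difference was 0.04 for Gm2a and -0.45 for Laptm4a, the lowest of the 19 members in that interval. Between 4 h and 8 h it was 0.80 for Gm2a and -0.16 for Laptm4a. As a scale for such values, 1 probe set had an SD of 0.33 at 8 h against 4 h and 0.32 at 24 h against 8 h. Changes against VAD had a larger SD by the same measure, with 0.42, 0.51 and 0.57 for the 4, 8 and 24 h arrays. These SDs were taken from 819 genes with probe sets from 2 different sequences, using 1 probe set per sequence. They hold probe error and leave out the spread between animals. Many of the smaller changes against VAD given here, of members and of list medians, lie within 1 such SD.

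Lamp1 and Lamp2 encode the main glycoproteins of the lysosomal membrane, whose sugar coat lines the inner face, and Lamp2 also serves autophagy. Lamp1 was read by 4 probe sets. The probe set rc_AI233362_at had ratios of 1.24 on the VAD array, 0.842 at 4 h, 0.731 at 8 h and 0.817 at 24 h, with changes of -0.56, -0.76 and -0.60. The probe set rc_AA899808_g_at had 1.15, 0.822, 0.686 and 0.811, with changes of -0.48, -0.74 and -0.50. These 2 lay below VAD on all 3 retinol arrays and followed each other closely. The probe set rc_AA850756_at had 1.15 on the VAD array, 1.16 at 4 h, 0.883 at 8 h and 0.965 at 24 h. The fourth, rc_AA899808_at, went the other way, with 1.104 on the VAD array, 1.60 at 4 h, 1.55 at 8 h and 1.77 at 24 h and changes of 0.54, 0.49 and 0.68.

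The disagreement within Lamp1 was between probe sets made from the same database sequence, AA899808. The probe set ending in _at exceeded that ending in _g_at by 1.02 on the log2 scale at 4 h, 1.23 at 8 h and 1.18 at 24 h. Across the array, 763 sequences had such a pair annotated with the same single gene. The _at probe set showed the higher change in 72.1% of them at 4 h, 70.9% at 8 h and 69.5% at 24 h, with median differences of 0.21, 0.26 and 0.25. The Lamp1 pair lay far out in the same direction, since 31, 20 and 24 of the 763 pairs had a larger difference. The comparison of such pairs was added after the Lamp1 values were seen.

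**Figure D2:**
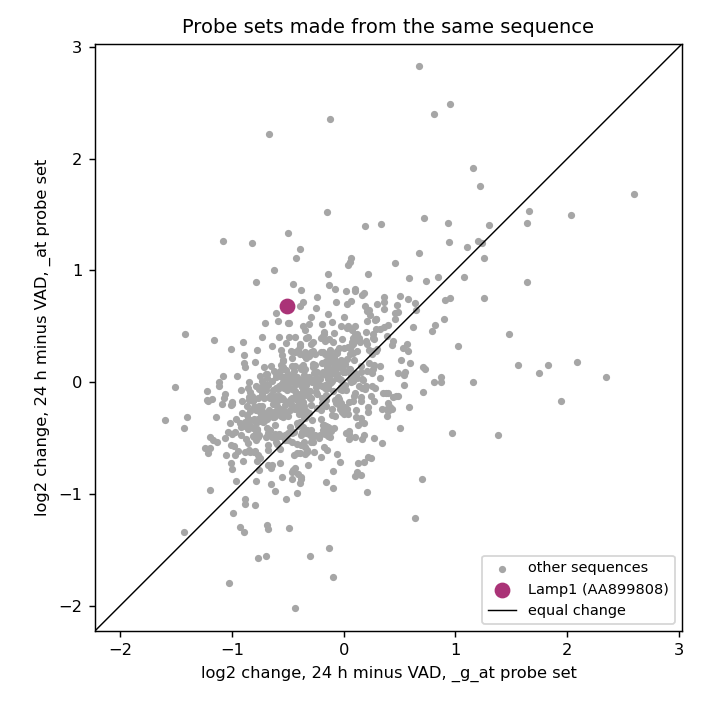
Log2 change at 24 h against VAD of the _at probe set (vertical axis) against that of the _g_at probe set (horizontal axis) for the 763 sequences with both, each point 1 sequence, with the line of equal change. More points lie above the line than below it (530 against 233), and Lamp1 lies 1.18 above it.

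Lamp2 was read by 3 probe sets, and all 3 lay below VAD at each time. The probe set M32016_at had ratios of 1.06 on the VAD array, 0.699 at 4 h, 0.632 at 8 h and 0.637 at 24 h, with changes of -0.60, -0.75 and -0.74. The probe set rc_AA800787_at had 0.795, 0.597, 0.530 and 0.624, with changes of -0.41, -0.58 and -0.35. The probe set D90211_s_at had 1.06, 0.957, 0.961 and 0.995, with changes of -0.15, -0.15 and -0.10. Lamp2 was therefore lower on every retinol array by every probe set as deposited, by up to 1.68-fold. Scaled on bacterial spike-ins, which are described with the other scaling values, D90211_s_at turned to 0.40, 0.35 and 0.52, and rc_AA800787_at turned to 0.14 at 4 h and 0.27 at 24 h.

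Ctsb, Ctsh, Ctsl and Ctss encode cysteine proteases of the papain family, and Ctsd an aspartic protease. The 7 probe sets of the 5 cathepsins had median log2 changes of -0.17 at 4 h, -0.20 at 8 h and -0.25 at 24 h, where all probe sets had medians of -0.09, -0.11 and -0.11. No cathepsin probe set passed 2-fold, and few of any 7 would. Of all probe sets, 2.21% to 4.68% were at least 2-fold higher at the 3 times and 1.58% to 3.41% lower. Ctsb, which digests proteins and peptides broadly, had ratios of 0.979 on the VAD array, 0.790 at 4 h, 0.774 at 8 h and 0.822 at 24 h. Ctsh, mainly an aminopeptidase, had 0.972, 0.866, 0.848 and 0.891. Both were lowest at 8 h and their changes against VAD lay between -0.34 and -0.13.

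Ctsd was read by 2 probe sets that disagreed. The probe set X54467_at had ratios of 0.987 on the VAD array, 0.787 at 4 h, 0.697 at 8 h and 0.773 at 24 h, with changes of -0.33, -0.50 and -0.35. The probe set rc_AI235585_s_at had 0.952, 1.29, 1.28 and 1.53, with changes of 0.43, 0.43 and 0.68. The distance between them, 1.03 on the log2 scale at 24 h, was larger than that of 87.4% of the 1073 genes with 2 probe sets, whose median was 0.44. No direction can be given for Ctsd from these arrays.

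Ctsl encodes cathepsin L, the protease that Sertoli cells release as a precursor. Its probe set S85184_g_at had ratios of 0.925 on the VAD array, 0.827 at 4 h, 0.790 at 8 h and 0.719 at 24 h. The probe set rc_AI176595_s_at had 0.886, 0.904, 0.822 and 0.735. Both were lowest at 24 h, the only members of which this held, with changes of -0.36 and -0.27. They differed by 0.09 at 24 h, and 10.7% of the genes with 2 probe sets had a smaller difference. Scaling on the spike-ins turned the sign of both at 24 h, to 0.26 and 0.35.

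Ctss encodes cathepsin S, which in antigen-presenting cells cuts the invariant chain of class II molecules. Its ratios were 1.20 on the VAD array, 0.980 at 4 h, 1.103 at 8 h and 1.18 at 24 h. It was lowest at 4 h and within 0.03 of VAD on the log2 scale at 24 h. The 10 measured macrophage marker genes of a list of 20 (21 probe sets) had median changes of 0.01, 0.16 and 0.15 over the 3 times, within ranges of -0.88 to 1.0, -0.90 to 1.23 and -1.06 to 2.01. Of them 1, 3 and 3 probe sets were at least 2-fold higher and 0, 0 and 1 lower. Above VAD lay 11, 12 and 12 of the 21. C1qc, a subunit of complement C1q made by macrophages, averaged 0.60, 0.97 and 1.05 over 3 probe sets, the largest gene mean of the list. The next by size were Itgam at 0.42, 0.63 and 0.44 and Fcgr2b at 0.25, 0.56 and 0.45, each by 1 probe set. Aif1 averaged -0.29, -0.53 and -0.51 over 3 probe sets and Csf1r, the receptor for the macrophage growth factor, was at -0.24, -0.28 and -0.39, both named after their values were seen. The part of macrophages in the member values was not tested.

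**Figure D3:**
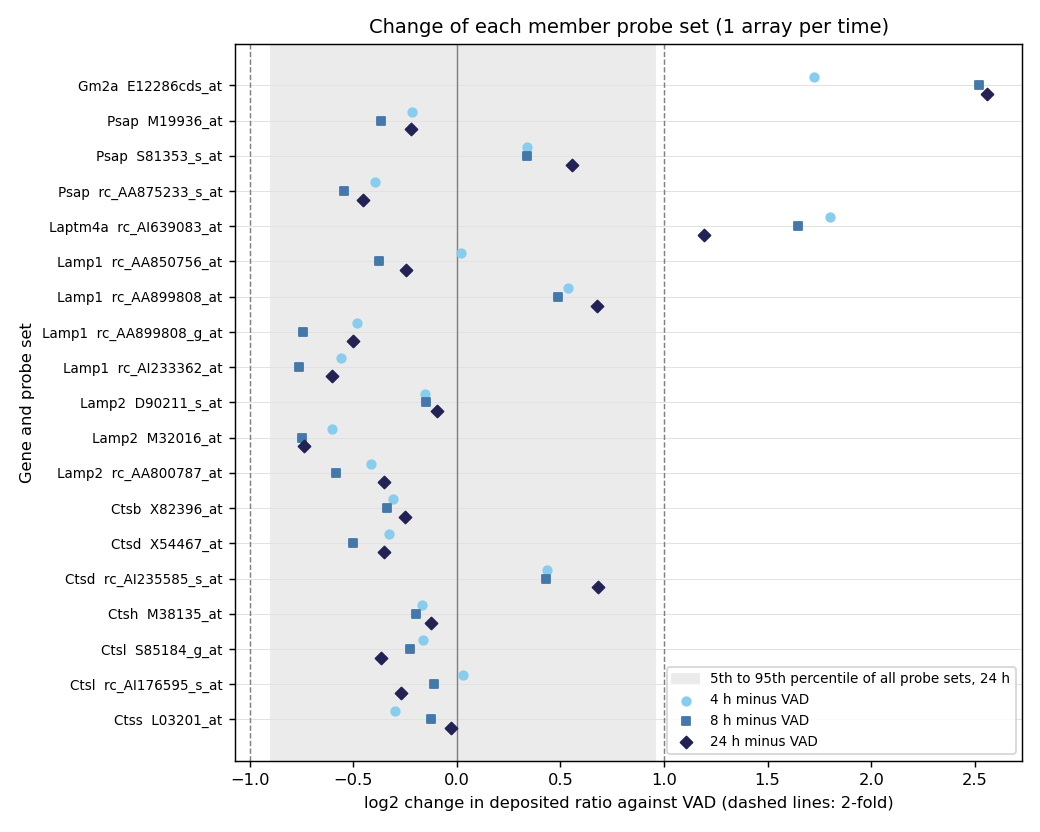
Log2 change in deposited ratio against VAD at 4 h (circles), 8 h (squares) and 24 h (diamonds) for each of the 19 probe sets, with dashed lines at 2-fold and a grey band from the 5th to the 95th percentile of all probe sets at 24 h. Gm2a and Laptm4a lie to the right of the 2-fold line at all times and every other probe set lies inside the band, with Psap, Lamp1 and Ctsd on both sides of 0.

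Of the 19 member probe sets, 10 were lowest at 8 h, where 24.7% of all probe sets and 26 of the 83 of the other lysosomal lists were. Several of the 10 read the same gene. As gene means, 6 of the 10 genes were lowest at 8 h (Psap, Lamp1, Lamp2, Ctsb, Ctsd and Ctsh), against 25.5% of 4736 genes. The means of Psap, Lamp1 and Ctsd join probe sets that went opposite ways, and each of these genes had a probe set lowest on the VAD array. The Ctsd mean at 8 h was only -0.04 from VAD on the log2 scale. The steps behind this were small. Between 4 h and 8 h, 15 of 19 were lower at 8 h, where 54.6% of all probe sets were, with a median step of -0.14. Between 8 h and 24 h, 16 of 19 were higher at 24 h, where 50.04% of all were, with a median step of 0.10. No member moved 2-fold in either step, against 0.885% of all probe sets higher and 1.04% lower at 8 h than at 4 h, and 0.899% higher and 0.856% lower at 24 h than at 8 h. These steps share the 8 h array, so a low value there enters both, and they were not tested.

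The sign of many smaller changes depended on the scaling between arrays. The array medians of the 9 bacterial spike-in controls differed from that of the VAD array by -0.55, -0.50 and -0.62 on the log2 scale, and scaling on them moved the median of all probe sets to 0.46, 0.39 and 0.51. As deposited, 12 of the 19 members were lower than on the VAD array at 4 h, and 14 were at both later times, where 59.3%, 59.8% and 58.5% of all probe sets were. With spike-in scaling 17, 13 and 18 of them were higher at the 3 times, as were 90.6%, 80.7% and 86.4% of all probe sets, and the sign of 9, 11 and 6 of the 19 stayed as deposited. Relative to the array median, which scaling leaves as it is, 12, 13 and 12 members lay below and 7, 6 and 7 above. For the actin, GAPDH and hexokinase controls, mean log2 changes against VAD were higher for 5' than for 3' probe sets, by 0.71, 1.09 and 1.01. These values compare changes between arrays and do not show whether 5' signal exceeded 3' signal on any array. The part of this difference in the disagreements between probe sets was not tested.

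Other genes of the lysosome were read from lists of hydrolases, further cathepsins, membrane proteins, proton pump subunits, sorting factors, cathepsin inhibitors and regulators. As a scale for the 2-fold counts of these and the marker lists, 2.21%, 4.04% and 4.68% of all probe sets were higher at 4, 8 and 24 h. The shares lower were 1.58%, 2.53% and 3.41%. Among the acid hydrolases, 10 of 36 listed genes were measured by 13 probe sets, and none passed 2-fold at any time. Their medians were -0.38, -0.33 and -0.33 at 4, 8 and 24 h. Ggh, which trims folate side chains, was at -0.59, -0.75 and -0.51, the acid phosphatase gene Acp2 at -0.57, -0.72 and -0.66, and the fucosidase gene Fuca1 at -0.50, -0.59 and -0.63. The sulfatase gene Arsb was at 0.49, 0.69 and 0.61.

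Further cathepsins (4 of 13 genes, 5 probe sets) had medians of -0.12, -0.13 and 0.07 and none passed 2-fold. Ctsc, the dipeptidyl peptidase that activates granule proteases, was read by a pair from 1 sequence, at 0.25, 0.36 and 0.72 for D90404_at and -0.25, -0.28 and 0.07 for D90404_g_at. Ctsj was at -0.12, 0.16 and 0.45, the bone-resorbing protease gene Ctsk at -0.04, -0.15 and -0.33, and the aspartic protease gene Ctse at -0.32, -0.13 and -0.06. The other membrane proteins (3 of 19 genes, 6 probe sets) had medians of -0.34, -0.45 and -0.61. The iron transporter gene Slc11a2 was at -0.97, -1.19 and -0.88 at 24 h by its 3 probe sets, of which 1 passed 2-fold. The tetraspanin gene Cd63 was at -0.16, -0.35 and -0.35. Scarb2, which carries glucocerebrosidase to the lysosome, was at -0.19, -0.20 and 0.00 as the mean of 2 probe sets. These were at 0.08, -0.10 and 0.14 for D10587_at and -0.46, -0.30 and -0.15 for D10587_g_at.

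None of the 12 proton pump probe sets (8 of 18 genes) passed 2-fold, with medians of -0.19, -0.26 and -0.26. Atp6v1b2 was at 0.51, 0.68 and 0.61, while Atp6v1d was at -0.28, -0.41 and -0.61 and Atp6v1f at -0.17, -0.46 and -0.36. Atp6v1a averaged -0.01, -0.06 and -0.29 over 3 probe sets that disagreed. Its probe set rc_AA892006_at was at 0.46, 0.46 and -0.12, while the others lay below VAD at each time. The sorting list (14 of 29 genes, 27 probe sets) had medians of -0.20, -0.30 and -0.20, with 0, 1 and 1 probe sets at least 2-fold higher and 0, 0 and 1 lower. Its largest change was that of Rab7a, the GTPase that drives late endosomes to fuse with lysosomes. By its 1 probe set it was 0.71, 1.26 and 1.28 above VAD on the log2 scale. The VAD ratio of that probe set was low, at 0.618, with 1.01, 1.48 and 1.505 at 4, 8 and 24 h. Taken against 1 in place of VAD, it stayed below 2-fold at each time. Furin, a proprotein convertase, averaged -0.44, -0.63 and -0.69, with 1 of its 2 probe sets past 2-fold at 24 h (-1.01). Ap1s1 of the clathrin adaptor AP-1 was at -0.53, -0.67 and -0.67, and Gnptg, a subunit of the enzyme that makes the mannose phosphate tag, averaged -0.49, -0.58 and -0.61.

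Among inhibitors of cathepsins (5 of 14 genes, 13 probe sets) the medians were -0.19, -0.26 and -0.28, with 1, 2 and 2 probe sets at least 2-fold higher and 0, 0 and 1 lower. The kininogen gene Kng2 was at -0.52, 1.63 and 1.51. The 6 probe sets of A2m, a protease-trapping plasma protein, ran from -1.19 to 2.40 at 24 h. The cystatin genes Cst8 and Cstb averaged -0.27, -0.57 and -0.48, and -0.26, -0.52 and -0.54. The regulators and autophagy genes (7 of 20 genes, 7 probe sets) had medians of -0.31, -0.36 and -0.42 and none past 2-fold. Map1lc3a of the autophagosome was at -0.50, -0.69 and -0.81, Becn1 at -0.44, -0.55 and -0.69 and the kinase gene Mtor at -0.12, -0.02 and -0.43, while Tfec, of the TFEB family, was at 0.48, 0.34 and 0.88. With spike-in scaling the medians of all 7 lists were above 0 at each of the 3 times, the lowest being that of the other membrane proteins at 24 h (0.0084).

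**Figure D4:**
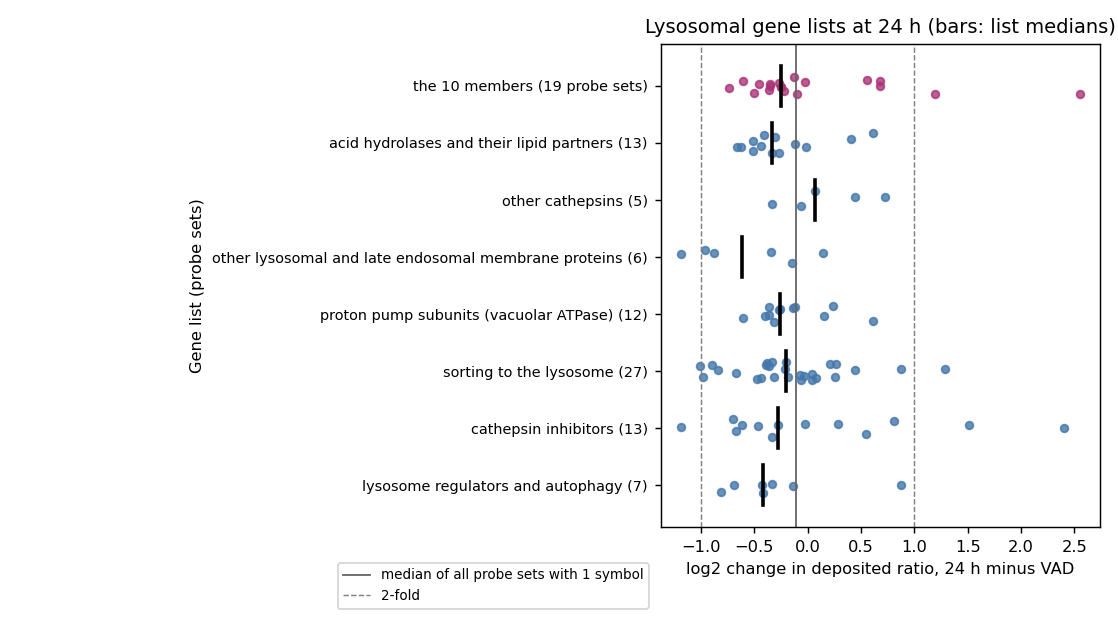
Log2 change in deposited ratio at 24 h against VAD for the probe sets of the 10 members (top row) and of 7 other lysosomal gene lists, 1 point per probe set, with black bars at list medians, dashed lines at 2-fold and a grey line at the median of all probe sets (-0.11). All rows but further cathepsins have medians left of the grey line, and the members' row holds Gm2a and Laptm4a as its 2 points past 2-fold.

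Sertoli cell markers (15 of 20 genes, 24 probe sets) had medians of 0.22, 0.19 and 0.25, with 2, 8 and 6 probe sets at least 2-fold higher and none lower. They lay on both sides of VAD, with 15, 16 and 16 of the 24 above it and ranges of -0.65 to 1.26, -0.71 to 1.72 and -0.79 to 1.59. Leydig cell markers (7 of 10 genes, 13 probe sets) had medians of 0.19, 0.03 and -0.29, with 1, 2 and 1 probe sets at least 2-fold higher and 0, 0 and 4 lower. Spermatid markers (12 of 13 genes, 18 probe sets) had medians of 0.46, -0.29 and -0.42, with 2, 0 and 0 higher and 0, 3 and 3 lower. As means over the probe sets of a gene, the largest change in each list was that of the keratin gene Krt18 at 8 h (1.27), the side-chain cleavage gene Cyp11a1 at 24 h (-1.95) and the transition protein gene Tnp2 at 4 h (1.87). The Leydig list also held Cyp17a1 at -1.63 and Nr5a1, a nuclear receptor of steroid-making cells, at 1.63 at 24 h. Of its 13 probe sets, 8, 7 and 4 lay above VAD at 4, 8 and 24 h. The part of cell composition in the member values was not tested.

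The probe sets nearest to Gm2a over the 3 log2 changes against VAD, by Euclidean distance among 7006, were those of Stx5 (distance 0.20), Cd36 (0.36) and Nr0b1 (0.41). Stx5, a SNARE protein of transport to and through the Golgi, also had a low VAD ratio of 0.408 by the probe set U87971_at. Its ratios were 1.52, 2.43 and 2.29 at 4, 8 and 24 h, or log2 changes of 1.90, 2.57 and 2.49. The partner from the same sequence, U87971_g_at, had smaller changes of 0.81, 0.99 and 0.95. Cd36, a fatty acid receptor, had 0.775, 3.26, 4.75 and 4.68 by the probe set AB005743_g_at, or changes of 2.07, 2.61 and 2.59. Its partner AB005743_at had changes of 1.31, 1.69 and 1.68. Nr0b1, a nuclear receptor, had 1.09, 3.50, 5.77 and 4.91. Nearest to Laptm4a were the nuclear envelope receptor gene Lbr (0.35), the kinase anchor gene Akap12 (0.39) and the phosphatase gene Dusp1 (0.39), each by 1 of the probe sets on the array. Lbr had ratios of 0.775, 2.47, 2.31 and 2.20, and none of the 3 had a VAD ratio as high as that of Laptm4a. The distances cover 3 values that share the VAD array.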

How the data were processed

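Whole rat testis was profiled in 4 groups, each with 1 deposited sample, called an array here. The values deposited by the authors are linear ratios per probe set. The submitters' processing notes name GCOS and MAS5, Affymetrix's array software, with no role. The sources used here do not give how signals became ratios, what the ratios refer to, whether chips were pooled or how arrays were scaled. Signal and background were not kept, so precision is limited by 1 array per group.

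The table held 8799 probe sets: 59 controls, 7006 with 1 gene symbol in the platform annotation, 308 with several and 1426 with none listed. Entrez IDs led 6985 of the 7006 to a current symbol in the RefSeq table of GRCr8. Ratios were put on the log2 scale, and a change is the difference between 2 arrays. The design had no test, so probe sets were counted past 2-fold and ranked among all 7006.

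Alternatives were centring on each array's median, scaling on 9 spike-in probe sets, the value against 1 in place of VAD, and gene means. Upstream sequences come from RefSeq's promoter table, cut to 250 bases. The counting was tested on simulated data. Named genes were all members and up to 4 genes per lysosomal list by largest change. Also named were up to 3 per marker list, not all printed, and the 3 probe sets nearest to Gm2a and Laptm4a. Aif1 and Csf1r of the macrophage list were named beyond this rule. The members and lists were chosen with earlier results of these data known. The motif search, the count of arrays with the lowest value and the same-sequence pairs were added after the data were seen. Python 3.11.15 with pandas 2.3.3, NumPy 2.4.6 and Matplotlib 3.10.9 was used.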

Additional observations from a re-analysis of the deposited data

How the results depend on the processing

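The count of 2 member probe sets at least 2-fold higher became 1 at 4 h when ratios were taken against 1 in place of the VAD array, because Gm2a was then at 1.61-fold, and became 5 at 24 h with spike-in scaling, under which 18.1% of all probe sets passed. At 8 h it was 2 under every alternative, at 4 h it was 3 with spike-in scaling (12.0% of all probe sets passed at 4 h and 12.5% at 8 h), and centring and gene means left it at 2 at all 3 times. The count of members at least 2-fold lower was 0 under every alternative. Gm2a and Laptm4a kept their direction at each time under all 4 alternatives. Of the 19 members, spike-in scaling turned the sign of 10 at 4 h, 8 at 8 h and 13 at 24 h, centring that of 0, 1 and 2, the value against 1 that of 1 at each time, and gene means that of 5, 3 and 3. No 2-fold member was found between successive times with or without centring. Leaving out an array was not possible with 1 array per group, and no paired analysis was possible because each group holds 1 sample. Depth and signal over background are unknown for these ratios, so a dim probe set cannot be told from a bright one, and no value has an error between animals.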

Other observations

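The other lysosomal lists held 17 pairs of probe sets from 1 sequence, as seen for Lamp1, from 16 genes, and the _at probe set had the higher change in 14 at 4 h, 14 at 8 h and 15 at 24 h, with median differences of 0.29, 0.37 and 0.31 on the log2 scale. Among all 763 such pairs of the array the share was 72.1%, 70.9% and 69.5%, with medians of 0.21, 0.26 and 0.25. Of the 17 pairs, that of A2m stood furthest apart at 24 h, and 1 of the Vps33b pairs did so at 4 h and 8 h, with the _g_at probe set higher. The A2m probe set M22670cds_at had ratios of 2.40 on the VAD array, 5.39 at 4 h, 11.9 at 8 h and 12.7 at 24 h, the highest of the whole table at 8 h and 24 h. Its partner M22670cds_g_at had 1.12, 1.17, 1.78 and 1.97. Neither the signal behind these ratios nor the place of the probes along the transcripts was examined here.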
